A study of Mus musculus with 4 samples.

Results

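The transcripts of 9 haematopoietic growth factor receptors, Kit, Flt3, Epor, Csf1r, Csf2rb, Csf3r, Il6ra, Il6st and Tek, were examined for m6A peaks in c-Kit+ cells. They were taken by name, as 9 of 21951 annotated protein-coding genes. A gene was given a peak when the summit of that peak, its highest point, lay in a GENCODE M21 exon of the gene. By this rule the receptors held 10 of the 15635 peaks of replicate 1 and 7 of the 14872 peaks of replicate 2.

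m6A meRIP-seq pulls down RNA fragments that carry N6-methyladenosine with an antibody and sequences them beside an input of unselected fragments. Per the labels, the cells were Kit+ foetal liver cells of the C57BL/6 background, enriched with magnetic beads, and the 4 samples were 2 m6A IP libraries, labelled total RNA, and 2 input libraries, labelled polyA RNA, numbered as replicates 1 and 2. The study's methods name c-Kit-enriched cells of the control genotype, Ythdf2 fl/fl, in which GFP is fused to the m6A reader YTHDF2, and call the replicates biological. No treatment is given, and the number and age of the foetuses are not given in the sources used here. There was 1 group of IP samples, so no comparison between conditions was possible, and each value is given for both replicates. In bulk cells, fewer cells of a type and less RNA per cell cannot be told apart.

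Growth factor receptors tell blood progenitors to survive, divide or mature. The members belong to 2 families. Kit, Flt3, Csf1r and Tek are receptor tyrosine kinases, whose inner part is itself the enzyme. Epor, Csf2rb, Csf3r, Il6ra and Il6st are type I cytokine receptor chains, which have no enzyme of their own, and those of them that signal do so through bound JAK kinases. m6A is written on the A of short consensus sequences and is often found near stop codons and in long last exons, and YTHDF2 binds it and promotes decay of the transcript.

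The bases under the peaks were read first, since m6A is deposited in the consensus DRACH (in IUPAC letters), of which GGAC followed by any base but G is a frequent form. The sites below are the DRACH matches nearest to the strongest summits of Epor, Il6ra and Csf3r, that nearest to the replicate 2 summit of Il6st, and for Csf2rb and Il6ra a GGAC match that lay within the peaks of both replicates. They are written 5′ to 3′ on the strand of the gene, with the 5 letters of the match in capitals.
Epor, coding sequence: gagtccacggGGACTcatctgatgg
Il6st, 3′ UTR: ttgcctctaaGGACAaagtcacacc
Il6ra, 3′ UTR, GGAC: gatttcaactGGACTggagctacta
Il6ra, 3′ UTR, nearest in replicate 1: tagattaaagTGACTtctgcaacca
Il6ra, 3′ UTR, nearest in replicate 2: gaaaaaacgtTAACTagcaagaatg
Il6ra, coding sequence: gctctgggtcTGACAataccgtaaa
Csf3r, 3′ UTR: tgtatcttgaAGACCctgccctatt
Csf2rb, 5′ UTR, GGAC: cagaaccccgGGACAatgaggacac
On GRCm38 these lie at chr9:21959138-21959162 (− strand) for Epor, at chr13:112504541-112504565 (+ strand) for Il6st, and at chr4:126043854-126043878 (+ strand) for Csf3r. Those of Il6ra (− strand) lie in the same order at chr3:89870345-89870369, chr3:89869685-89869709, chr3:89870296-89870320 and chr3:89871237-89871261. That of Csf2rb (+ strand) lies at chr15:78335139-78335163. A match is a description of the letters, and the peaks are too wide to name the methylated base.

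An exonic summit was found in both replicates for 6 of the 9 receptors, namely Epor, Csf1r, Csf2rb, Csf3r, Il6ra and Il6st. Kit, Flt3 and Tek had 0 peaks in each replicate, also when any overlap of a peak with an exon was counted, by which 32.6% of all protein-coding genes were called in both replicates. By the summit rule 30.9% of all protein-coding genes were called in both replicates, 34.4% in replicate 1 and 33.5% in replicate 2. Each of the 5 cytokine receptor chains had a summit in no other gene's exon, whereas the peak of Csf1r, the one tyrosine kinase with a summit, also lay in exons of the gene on the opposite strand. When summits in exons of several genes were left out, 5 receptors remained, against 29.1% of all protein-coding genes, and none of them was a tyrosine kinase. With a minimum fold enrichment of 4 in both replicates, Il6ra and Il6st remained, which is 2 of 9 against 16.9%, with 2 in replicate 1 (21.3% of all) and 3 in replicate 2 (21.7%). For a gene without a peak, too few reads and absence of m6A cannot be told apart, and levels of the transcripts in the input were not analysed here. Whether the ceiling in IP reads described below for Epor bears on such genes was not tested.

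**Figure D1:**
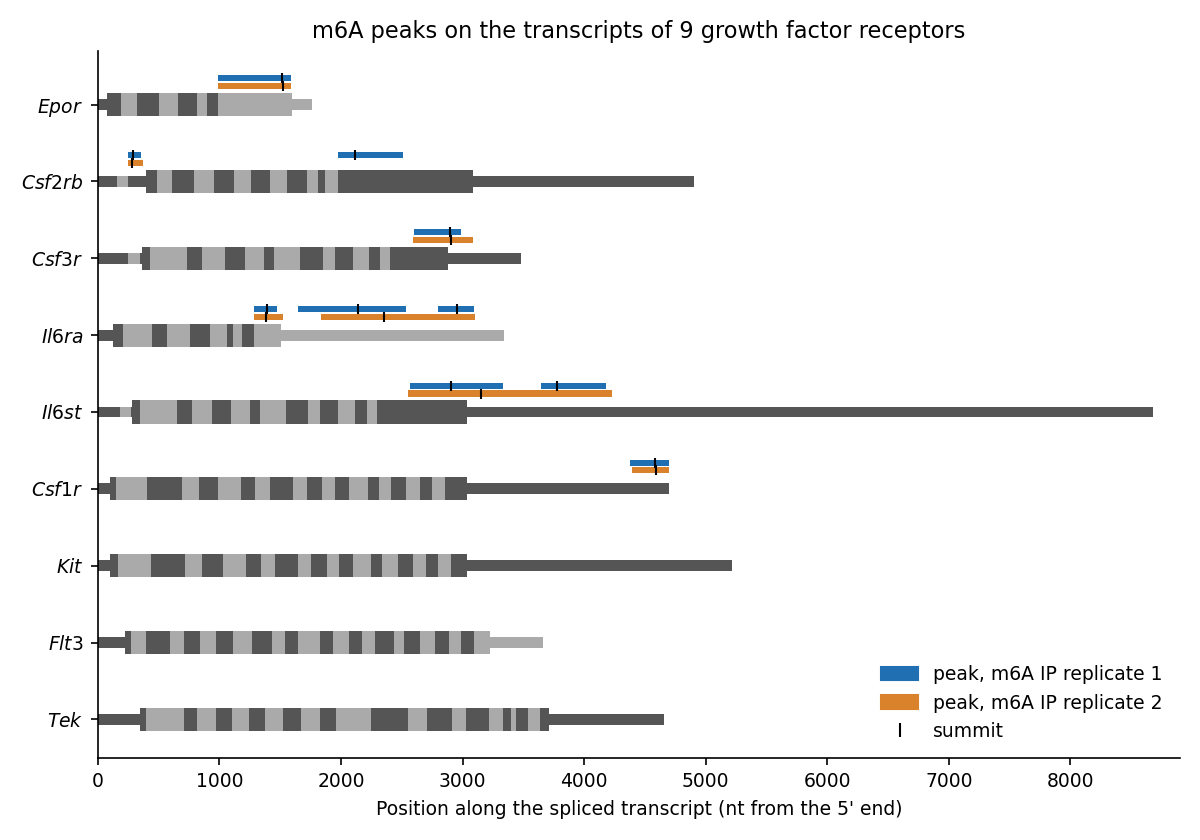
Spliced transcripts of the 9 receptors, with position in nt from the 5′ end on the horizontal axis; thick bars are coding sequence, thin bars UTRs, shades alternate by exon, and blue and orange bars are the exonic parts of the peaks of replicates 1 and 2 with their summits as ticks. Of the summits, 9 of 10 in replicate 1 and 6 of 7 in replicate 2 lay in the last exon, and Kit, Flt3 and Tek had no peak.

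The map of peaks on the transcripts shows where the summits fell. The last exon held 9 of 10 summits in replicate 1 and 6 of 7 in replicate 2, the exception being the 5′ peak of Csf2rb. Over all summits that could be placed on 1 coding transcript the last exon held 61.6% in replicate 1 and 61.1% in replicate 2. Within 200 nt of the stop codon lay 4 of 10 summits in replicate 1 and 4 of 7 in replicate 2, from Epor, Csf3r, Il6ra and Il6st in each, and over all placed summits the shares were 30.7% and 29.8%. GGAC lay within 50 nt of 5 of 10 and 4 of 7 summits, against 56.1% and 56% of all placed summits, so the receptors did not stand apart there. Summits of 1 transcript are not independent of each other.

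Epor encodes the receptor for erythropoietin, the hormone that sustains red cell precursors. Its single peak (chromosome 9, − strand) spanned 21959071 to 21959701 in replicate 1 and 21959073 to 21959705 in replicate 2 and lay in exon 8 of 8. It covered 600 and 598 of the 609 coding nt of that exon. The summits, 5 nt apart, lay 79 and 74 nt upstream of the stop codon (distances are counted from its first base), at codons 481 and 483 of 507, and the A of the GGACT printed above lay 10 and 15 nt upstream of them. Fold enrichment, the ratio of IP signal to local background, was 1.73 in replicate 1 and 1.79 in replicate 2, with −log10 q of 8.54 and 9.19. Only 2.0% and 2.34% of the peaks of each list had a fold this low or lower. The reads behind each peak were recovered from its fold and p-value, where control reads are the local background that the peak caller took from its control. At Epor these were 178 IP and 117 control reads in replicate 1 and 180 and 95 in replicate 2, and the background was at percentile 99.5 and 99.4 of all peaks. The IP and control counts were each multiplied by a scale before their ratio was taken. This scaled ratio was 1.74 (95% interval 1.37 to 2.22) in replicate 1 and 1.80 (1.40 to 2.34) in replicate 2. These intervals treat the background as a count of reads. Epor thus had the deepest background and the lowest fold of the receptors, and both replicates gave nearly the same value. Its low fold stood beside a ceiling in the IP reads. Of all peaks, 820 in replicate 1 and 580 in replicate 2 had over 150 and up to 200 IP reads, whereas 22 and 19 had more than 200. The 83 and 86 peaks with at least 117 and 95 control reads had a median fold of 1.60 and 1.56, and a highest of 2.40 and 2.16. Epor is among the shallowest of these by the choice of the limit, so its place among them says nothing. The cause of the ceiling, and its part in the fold of Epor, were not tested.

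Il6st encodes gp130, the signalling chain shared by the receptors for IL-6 and related cytokines. Its transcript (chromosome 13, + strand) had the longest last exon of the 9 receptors, 6382 nt. In replicate 1 this exon held separate peaks from 112503972 to 112504739 and from 112505055 to 112505583, with fold enrichment of 6.68 and 4.41 and −log10 q of 14.5 and 7.91. In replicate 2 a single peak from 112503957 to 112505640 spanned both, with fold enrichment of 7.87 and −log10 q of 19.7. The same stretch on either side of the stop codon was thus enriched in both replicates, as 2 peaks in one and as 1 in the other. The strongest summit lay 132 nt upstream of the stop codon in replicate 1, at codon 874 of 917, and 114 nt downstream of it in replicate 2. The GGACA printed above lay 4 nt upstream of the latter. These folds rested on few reads. Replicate 1 had 29 IP reads over 4 control reads (scaled ratio 8.30, 95% interval 2.91 to 32.5). Replicate 2 had 37 over 3.6 (9.78, 3.36 to 41.4). The latter background is not a whole number of reads, so its interval is approximate.

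Il6ra encodes the chain that binds IL-6 itself and has no JAK partner of its own. Its transcript (chromosome 3, − strand) carried peaks along exon 10 of 10, which holds 2063 nt and the whole 3′ UTR. The peak nearest to the stop codon spanned 89871198 to 89871398 in replicate 1 and 89871145 to 89871439 in replicate 2, with fold enrichment of 3.25 and 4.66. Its summits, 113 and 121 nt upstream of the stop codon, lay at codons 423 and 420 of 460. Further along the 3′ UTR, enrichment was 7.01-fold between 89870131 and 89871018 and 6.27-fold between 89869572 and 89869871 in replicate 1. In their place replicate 2 had 1 long peak between 89869564 and 89870832, with 4.95-fold enrichment. The strongest summit by q lay 1451 nt past the stop codon in replicate 1 and 848 nt past it in replicate 2, so the summits were 603 nt apart although the peaks overlapped. In replicate 1 the peak with the summit at 89869712 contained no GGAC and 5 DRACH matches and that with the summit at 89870526 contained 3 GGAC and 16 DRACH, and the joined peak of replicate 2 contained 3 GGAC. The GGACT printed above lay upstream of the strongest summits, at -645 nt in replicate 1 and -42 nt in replicate 2. Reads behind the strongest peaks were 71 IP over 12 control in replicate 1 and 51 over 9 in replicate 2.

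Csf3r encodes the receptor for G-CSF, which drives neutrophil production. Its peak (chromosome 4, + strand) spanned 126043560 to 126043944 in replicate 1 and 126043555 to 126044042 in replicate 2, in exon 17 of 17. The summits lay 21 and 28 nt past the stop codon, closer to it than any other summit of the receptors. Fold enrichment was 3.45 and 2.95, with −log10 q of 14.8 and 7.92, on 67 IP reads over 21.4 control reads and 51 over 15.8. The peak contained 0 GGAC in each replicate and 10 DRACH matches, of which the AGACC printed above lay 9 and 2 nt from the summits.

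Csf2rb encodes the beta chain shared by the receptors for IL-3, IL-5 and GM-CSF. Its shared peak (chromosome 15, + strand) was the only one of the receptors in the 5′ UTR, in the exon that holds the start codon. It spanned 78334956 to 78335165 in replicate 1 and 78334948 to 78335184 in replicate 2, with summits 107 and 117 nt upstream of the start codon. Fold enrichment was 3.74 and 5.99, on 55 IP reads over 16 control reads and 43 over 6. The GGACA printed above lay 51 and 61 nt downstream of the summits. The nearest DRACH match was another, AAACC, at 18 and 28 nt. Only 108 and 127 nt of these peaks were exonic, and the remainder reached into the intron before the exon. The IP libraries are labelled total RNA and the inputs polyA RNA, and the part of unspliced RNA in these folds was not tested. A further peak of replicate 1, from 78348051 to 78348606 in the coding part of exon 15 of 15, had 2.07-fold enrichment and −log10 q of 4.16 and overlapped no peak of replicate 2. It was the 1 peak of the receptors out of 17 that was not shared.

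The values of Csf2rb carry a limit, because mouse has a neighbouring copy, Csf2rb2. Over 2643 aligned positions of coding sequence the transcripts were 94.8% identical. The exonic part of the 5′ peak differed from the transcript of Csf2rb2 at 1 aligned position in each replicate, with an identical run of 93 nt, and the 3′ peak was 95.4% identical to it. Csf2rb2 had no exonic summit in either replicate. How reads that match both genes were treated is not given in the sources used here, and the part of such reads in these peaks was not tested.

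Csf1r encodes the receptor for M-CSF and IL-34, on which macrophages depend. Its peak (chromosome 18, + strand) spanned 61131824 to 61132591 in replicate 1 and 61131843 to 61132494 in replicate 2, with fold enrichment of 3.56 and 3.26 and −log10 q of 25.9 and 21.3, on 112 IP reads in each. The summits lay 1553 and 1561 nt past the stop codon of Csf1r, near the end of the longer of its annotated 3′ UTRs. That end overlaps the last exon of Hmgxb3, transcribed from the opposite strand, for 873 bp. All 768 and 652 bp of the peaks lay in exons of Hmgxb3, and 326 and 307 bp in those of Csf1r. On Hmgxb3 the summits lay 111 and 103 nt past the stop codon, in exon 20 of 20. GGAC was found within 50 nt of the summits on either strand. The peak lists carry no strand, so methylation of Csf1r and of Hmgxb3 cannot be told apart here, and when at least 50% of a peak had to lie in exons of the gene, Csf1r lost its call in both replicates. The other 5 receptors with a peak kept theirs, against 30.5% of all protein-coding genes.

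**Figure D2:**
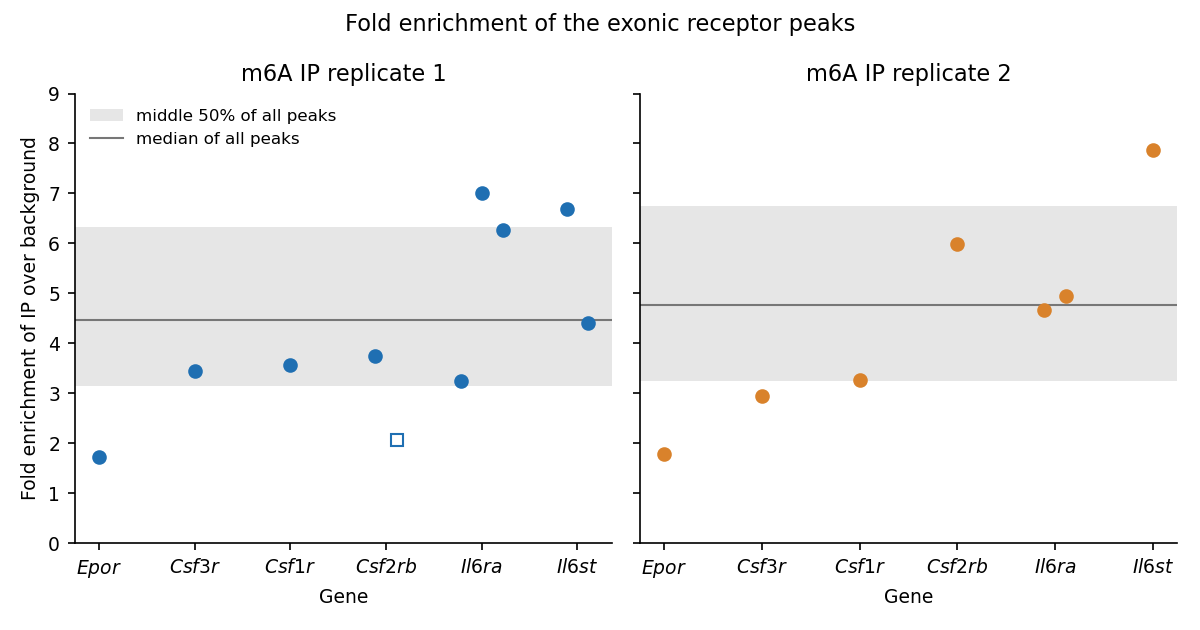
Fold enrichment of IP over background of each exonic peak of the receptors in m6A IP replicates 1 and 2; filled circles are peaks that overlapped a peak of the other replicate, the open square one that did not, the grey band holds the middle 50% of all peaks of the list and the line is their median. Epor lay lowest in each replicate (1.73 and 1.79) and a peak of Il6st was highest in replicate 2 (7.87), while a peak of Il6ra was highest in replicate 1 (7.01).

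The plot of fold enrichment by gene sets these peaks against all others. Median fold enrichment over the whole list was 4.47 in replicate 1 and 4.76 in replicate 2. Overlapping peaks were then joined into 7 shared regions, and the peak with the highest −log10 q gave the value of each replicate. On the log2 scale Il6st had 2.86 ± 0.17 (SD, n = 2 for this and the following values), the 3′ UTR of Il6ra 2.48 ± 0.24, Csf2rb 2.24 ± 0.48, the stop codon region of Il6ra 1.96 ± 0.37, Csf1r 1.77 ± 0.09, Csf3r 1.67 ± 0.16 and Epor 0.82 ± 0.03. Only Il6st at the top and Epor at the bottom were separated from their neighbour in this order by non-overlapping replicate values, with differences of 0.38 and 0.85. The low fold of Epor stood beside the ceiling in IP reads described above, and the part of that ceiling in its separation was not tested. The separation of Il6st rests on the choice of peak, because the 3′ UTR region of Il6ra also held the 7.01-fold peak of replicate 1, above the 6.68 of Il6st, and with that peak their values overlap. The 4 neighbouring pairs between them overlapped. Across 11524 one-to-one pairs of all peaks, log2 fold enrichment differed between the replicates with an SD of 0.47. This is a spread between single values of a peak, whereas 0.38 and 0.85 are differences between means of 2 replicates. They are therefore not measured against it. The regions of Il6st and of the 3′ UTR of Il6ra, split in replicate 1, were not such pairs. No test was made with 2 replicates. The change from replicate 1 to replicate 2 ranged from -0.34 in the 3′ UTR of Il6ra to 0.68 in Csf2rb, and Csf2rb and the stop codon region of Il6ra (0.52) lay beyond 1 SD of all pairs.

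**Figure D3:**
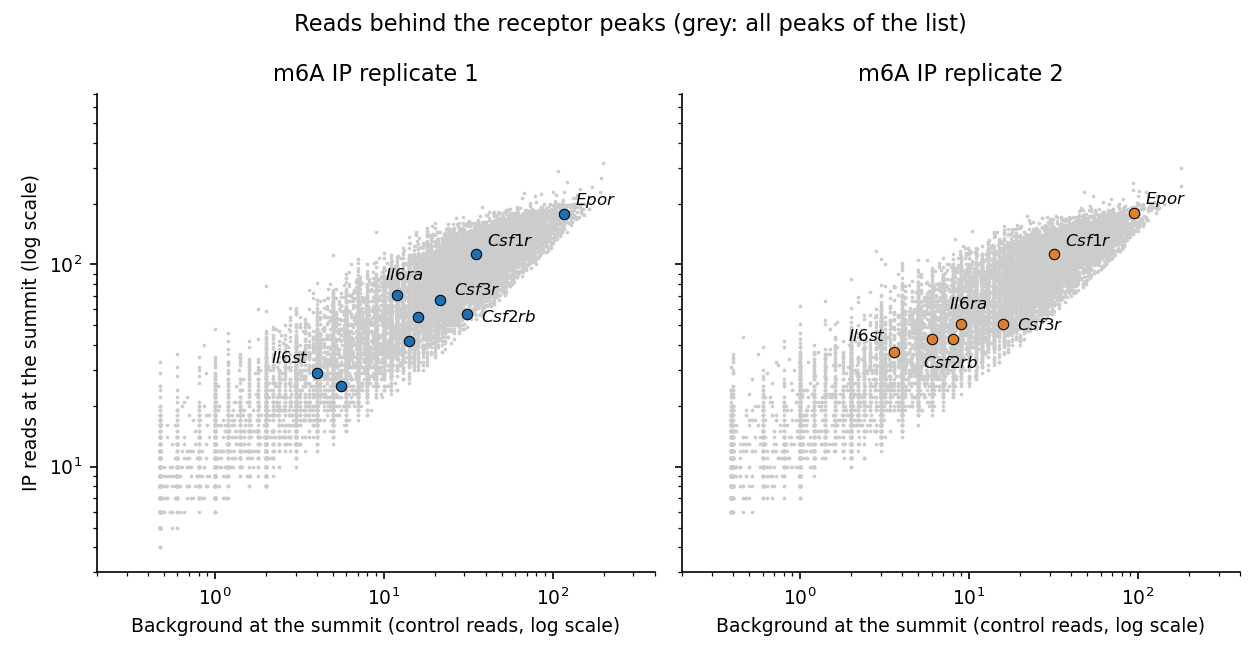
IP reads at the summit against background in control reads, on log axes, for all peaks of each replicate (grey) and for the peaks of the receptors (coloured, with the highest of each gene named); 1 peak of Il6ra in replicate 1 is left out because its reads could not be told from the values. Epor, with 178 and 180 IP reads, sits at the deep end and near the lower edge of the cloud, and Il6st has 29 and 37 IP reads over a background of at most 4 control reads at its strongest summits.

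The plot of reads at the summits shows that deep peaks did not always have a high fold in these receptors. Peaks enter the lists by significance, so a shallow peak is listed only when its fold is high. Over all peaks the median was 57 IP reads in each replicate, over 13 control reads in replicate 1 and 10 in replicate 2. Csf1r and Epor lay above this depth in both replicates and below the median fold. Il6st lay below it at every summit, and at its strongest summits above the median fold. The strongest peak of Il6ra in replicate 1 lay above both medians, with 71 IP reads and 6.27-fold enrichment. In replicate 1 the 95% interval of the scaled ratio ran from 1.37 to 2.22 in Epor and from 2.91 to 32.5 in Il6st. These intervals cover counting error only, with the background treated as a count of reads, since reads were not tied to single molecules.

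The 3 receptors without a peak were long transcripts with consensus sites. Kit, the receptor for stem cell factor and the protein by which the cells were enriched, had a transcript of 5214 nt (chromosome 5, + strand, 75574916 to 75656722) with 14 GGAC, of which 5 lay in its last exon of 2309 nt. Flt3, the receptor of early lymphoid and myeloid progenitors, had 14 GGAC in 3657 nt (chromosome 5, − strand, 147330741 to 147400489). Tek, the angiopoietin receptor of endothelium and stem cells, had 27 GGAC in 4654 nt (chromosome 4, + strand, 94739289 to 94874976). The median of all protein-coding transcripts was 10 GGAC and 2543 nt. Per kb, Kit had 2.69 GGAC, Flt3 3.83 and Tek 5.80, against 3.29 to 10.2 in the receptors with a peak and a median of 4.0 over all transcripts. In the last exon Flt3 and Tek had 2 GGAC each and Kit 5, against 3 (Csf3r) to 22 (Il6st) in the receptors with a peak. Both ranges overlapped through at least 1 of the 3 receptors, although Kit lay below every receptor with a peak per kb, and Flt3 and Tek did in the last-exon count.

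The families differed in how the coding sequence is divided among exons. In the cytokine receptor chains the last exon held between 223 nt (Il6ra) and 1111 nt (Csf2rb) of coding sequence, whereas in the tyrosine kinases it held 72 nt in Tek, 129 nt in Kit, 132 nt in Flt3 and 174 nt in Csf1r. The ranges did not overlap. Of the coding summits, all lay in these last-exon stretches of the cytokine receptors, namely in Epor and Il6ra in both replicates and in Il6st and Csf2rb in replicate 1. No receptor had an exon of 400 nt or more before its last, the longest being 393 nt in Tek. This is a description of 9 transcripts, and whether exon structure bears on the peaks was not tested.

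**Figure D4:**
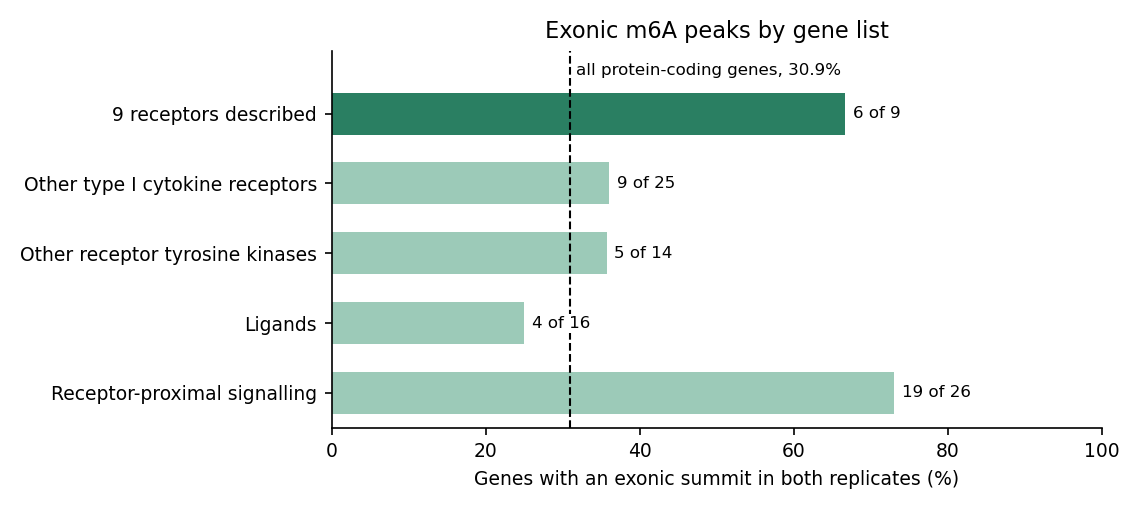
Share of genes with an exonic summit in both replicates, in percent, for the 9 receptors and for 4 lists of related genes; the dashed line is the share of all protein-coding genes. The other receptors (9 of 25 and 5 of 14) and the ligands (4 of 16) lay near the dashed line at 30.9%, and receptor-proximal signalling genes had 19 of 26.

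Related genes were counted by the same rule, as plotted by gene list. Of 25 other type I cytokine receptors, 9 had a summit in both replicates (36%, against 30.9% of all protein-coding genes), 3 in 1 replicate and 13 in neither. Ranked by the lower of both replicates, the highest folds were those of Il9r (9.07 and 9.55), Il7r (8.57 and 10.9), the receptor that early lymphocytes need, Il21r (7.85 and 9.82) and Il4ra (7.66 and 8.12). Il3ra, which pairs with Csf2rb, had no exonic summit in either replicate. Csf2ra, the partner of Csf2rb in the GM-CSF receptor, had 5.13 and 7.15. Il5ra, the partner of Csf2rb in the IL-5 receptor, had 4.37 and 11.4. Il3ra, Csf2ra and Il5ra were singled out after their values were seen.

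Of 14 other receptor tyrosine kinases, 5 had a summit in both replicates (35.7%), 1 in 1 replicate and 8 in neither. The insulin receptor Insr had 9.10-fold and 7.62-fold enrichment, Kdr, the VEGF receptor of endothelium and early blood precursors, 8.01 and 9.54, Pdgfrb 8.07 and 6.07, and Met 4.97 and 5.96. Tie1, the relative of Tek, singled out after its values were seen, had no exonic summit in either replicate.

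Among 16 ligands, 4 had a summit in both replicates (25%) and 12 in neither. The strongest was Csf1, the ligand of Csf1r, with 16.8-fold and 11.4-fold enrichment. Angpt1, the ligand of Tek, had 6.75 and 6.07, Osm, which signals through Il6st, had 5.56 and 7.31, and Flt3l, the ligand of Flt3, had 3.28 and 2.73. In pairs singled out after their values were seen, Flt3l and Angpt1 had an exonic summit and their receptors Flt3 and Tek had none. Angpt2, the other ligand of Tek in the list, had none either, and Kitl and Kit both had none, as did Epo, Csf3 and Il6, whose receptors had one.

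Of 26 genes that act next to these receptors, 19 had a summit in both replicates (73.1%), 2 in 1 replicate and 5 in neither. The Src family kinase Lyn had 9.94-fold and 9.05-fold enrichment, the PI3 kinase subunit Pik3r1 8.74 and 15.2, Adam10, a protease that sheds receptors from the cell surface, 6.38 and 8.57, and the phosphatase Inpp5d 7.45 and 5.83. Jak2, the kinase bound by Epor and Csf2rb, had 6.02 and 3.94, and Jak1, which Il6st uses, 5.13 and 4.79. The Jak family kinase Tyk2 and Stat3, Stat5a and Stat5b had no exonic summit in either replicate. The Jak and Stat genes were singled out after their values were seen. Expression was not measured in these lists, so the counts describe which transcripts gave a peak and set no list apart.

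The label of the cells was looked at through peaks of marker genes, each of which needs both expression and methylation to appear. Of 8 stem and progenitor markers, 7 had a summit in both replicates, among them Spi1 (8.01 and 8.10), Cd34 (7.09 and 5.73), Runx1 (5.56 and 7.50) and Meis1 (6.73 and 5.40), and Myb had none. Both replicates had a summit in 2 of 6 erythroid markers, 1 of 6 macrophage markers (Cd14, 4.80 and 6.19) and 1 of 6 endothelial markers (Kdr). The same held for 2 of 6 hepatocyte markers (Hnf4a, 6.59 and 8.44, and Apoa1, 4.85 and 5.24). By this rule 30.9% of all protein-coding genes were called, near the 33.3% of erythroid and hepatocyte markers. Those 2 counts therefore tell nothing of such cells. The macrophage markers Adgre1, Cd68, Mrc1 and Marco and the endothelial markers Pecam1, Cdh5, Tie1, Stab2 and Emcn had no exonic summit in either replicate. Nor did the erythroid marker Gata1 or the hepatocyte markers Alb, Ttr and Serpina1a. The part of such cells in the peaks of the receptors was not tested.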

How the data were processed

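The peak lists of m6A IP replicates 1 and 2 were analysed, 1 list per replicate. Per the study's methods the authors aligned reads to GRCm38 with HISAT2 and called peaks with MACS2 (2.1.1.20160309 in the submitters' processing notes) with the nomodel flag; threshold and control library are not given in the sources used here. The deposited fold enrichment is the ratio of IP pileup to local background at the summit, the deposited −log10 p-value and q-value are those of MACS2, the deposited score is −log10 q times 10 as a whole number, and the deposited offset gave the summit. The lowest −log10 q was 1.31 and 1.30, that is a q of 0.05.

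Coordinates are on GRCm38, counted from 1, with exons from the basic set of GENCODE M21 and sequences from its transcripts. Each gene was represented by its transcript of longest coding sequence. Peaks were shared when they overlapped by at least 1 bp. Stop and start codon windows were 200 nt, motif windows 50 nt along the transcript after splicing, sense strand only. All 9 members and, from each related list, the 4 genes with the highest lower-of-replicates fold were named. Members and lists were chosen with earlier results of these data known. Percentiles and shares describe all peaks of a list, and background shares are over all 21951 protein-coding genes.

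IP and control reads at each summit were solved from fold and p under the MACS2 formulas, which add 1 to IP and control before the fold and gave whole IP reads (within 0.02) for 100% of peaks, and a single solution for 92.2% and 94.2%. The solution was tested on simulated data. The simulated backgrounds were whole numbers of reads and lower than that of Epor, and the simulated folds were above those of Epor. The test therefore does not cover the peak of Epor or backgrounds that are not whole numbers. Library totals are not known. For ratios, IP reads were multiplied by 1 and 0.952 and control reads by 0.874 and 1 in replicates 1 and 2. These scales were solved from the same fold and p-values as the reads. Intervals of read ratios are 95% intervals, exact where both IP and background are counts of reads. The background was treated as such a count. Where it is a local average and not a whole number of reads, the interval is approximate. Python 3.11.15, numpy 2.4.6, pandas 2.3.3, scipy 1.17.1 and Biopython 1.88 were used. Sequence of chromosome 18 and some other items are not reported here.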

Additional observations from a re-analysis of the deposited data

Results flagged for a closer look

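A peak of Csf3r with its summit outside its exons stood apart from the comparisons above, which use exonic summits only. The peak itself also covered part of exon 1. In replicate 1 a peak from 126024643 to 126024902 on chromosome 4 had its summit in intron 1, in no exon of the comprehensive annotation, with 6.23-fold enrichment. It rested on 16 IP reads over 1.98 control reads (scaled ratio 9.25, 95% interval 2.16 to 84.2). This background is not a whole number of reads, so the interval is approximate. Replicate 2 had no peak there, and the part of unspliced RNA in the fold of replicate 1 was not tested.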

How the results depend on the processing

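The receptors with an exonic summit in both replicates numbered 6 and ranged from 6 to 6 when replicate 1 or replicate 2 was left out, 5 when summits in several genes were left out or at least 50% of a peak had to be exonic, and 2 with a minimum fold enrichment of 4, under which replicate 1 had 2 and replicate 2 had 3. The 16 shared peaks became 10 with summits within 100 bp. Of them, 8 had GGAC within 50 nt, 5 within 25 nt and 13 within 100 nt, and 16 had DRACH within 50 nt. Summits at the stop codon numbered 8 of 17, and 4 with a window of 100 nt. Of the other 36 of 44 values, the counts stayed within 1.5 times the main count. With 2 replicates, the value without one is that of the other and shows no stability. Leaving out a replicate gave log2 fold enrichment of 2.74 to 2.98 in Il6st, 2.31 to 2.65 and 1.70 to 2.22 in Il6ra, 1.90 to 2.58 in Csf2rb, 1.70 to 1.83 in Csf1r, 1.56 to 1.79 in Csf3r and 0.79 to 0.84 in Epor. The fold minimum leaves out by construction Epor, Csf1r and Csf3r, which were below it in both replicates, and Csf2rb, which was below it in replicate 1. No paired analysis was possible because the peak lists are those of the IP samples alone, and the input samples entered no test. Depth limits most the peaks of Il6st, with at most 37 IP reads.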
